A study of Mus musculus with 6 samples.

Results

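Heat shock proteins and their co-chaperones were examined in RNA from the soleus (Sol) muscle of mice after voluntary wheel running (VWR), as 10 genes found by their symbols among the 24411 genes of the count table. These were Hspa1a, Hspa1b and Hspa8 of the HSP70 family, the HSP70 partners Dnajb1, Hsph1 and Bag3, the HSP90 gene Hsp90aa1, and the small heat shock protein genes Hspb1, Hspb7 and Cryab. Heat shock proteins are chaperones that bind unfolded or misfolded proteins, and many of their genes are induced by heat shock factor 1 when damaged proteins accumulate. HSP70 works in cycles that J-domain proteins start and nucleotide exchange factors end, while HSP90 acts on more mature clients. In striated muscle, small heat shock proteins bind filament proteins at the Z-disc, and BAG3 joins them to HSP70 for the removal of damaged filamin.

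The 6 libraries came from 3 WT and 3 LSD1-mKO mice on a C57BL/6 background, with 1 library per mouse. LSD1-mKO mice were homozygous for a floxed Lsd1 allele and carried CreERT2 under the human ACTA1 promoter, which acts in muscle cells. Whether other cells of the muscle kept the gene was not tested. WT mice carried the floxed allele without CreERT2, so loss of LSD1 and presence of CreERT2 cannot be told apart. Mice of both genotypes were 8 weeks old when they were placed singly with a running wheel for 38 days. The 30 days of recorded running came after tamoxifen, given to both genotypes at 75 mg/kg on 5 days. The first 3 days, before tamoxifen, served to get used to the wheel. The wheel and food were withdrawn before tissues were taken. Sedentary mice were not analysed here, so the comparison is between genotypes after running. The estimated counts summed to 8940206, 10366443 and 10989846 in the WT libraries and to 13563881, 13798059 and 10984664 in the LSD1-mKO libraries, and all values below are listed in the order of replicates 1, 2 and 3. Bulk RNA cannot tell fewer cells of a type from less RNA per cell.

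Kdm1a, which encodes LSD1 and lies at chr4:136550540-136602723 of GRCm38, was examined first as a check of the labels. Its level was 40.5, 38.2 and 33.6 CPM in WT, where CPM is the count scaled to a common library size with TMM factors, and 14.6, 16.6 and 16.6 CPM in LSD1-mKO. Each LSD1-mKO value was under the lowest WT value, with no overlap. The log2 fold change of LSD1-mKO over WT was -1.23 (SE 0.11, adjusted p = 0.0160, edgeR quasi-likelihood test with Benjamini-Hochberg adjustment). This call was lost without WT replicate 2 or any 1 of the LSD1-mKO mice, with adjusted p from 0.111 to 0.209 in edgeR and log2 fold changes from -1.17 to -1.26. Among the fiber markers, Myh7 was the most abundant of the slow list, at 11233 to 15151 CPM over the 6 libraries, and Myh2 the most abundant of the fast list, at 14850 to 26503 CPM. Myh2 was above Myh7 in 6 of 6 libraries, and Myh4 lay between 15.0 and 40.6 CPM.

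All 10 genes passed the expression filter. At an adjusted p under 0.05, 0 of the 10 differed between the genotypes in edgeR, beside 0.0156% of the 12828 genes tested. Those were Kdm1a and Esr1, and the paper's name for the Cre driver line contains Esr1. Whether the Esr1 reads came from the driver was not tested. The count was also 0 of 10 in DESeq2, beside 0.327% of all genes tested, and in limma voom, beside 0.0234%. At an unadjusted p under 0.05 it was 0 of 10 in edgeR, beside 6.40% of all genes tested, 0 in limma voom, beside 6.31%, and 1 in DESeq2, which was Hspa8, beside 4.50%. In edgeR it was 3 without LSD1-mKO replicate 1 (Hspa8, Hsp90aa1 and Hspa1b, beside 7.35%), and 1, Hspa8, without WT replicate 1 (beside 14.4%) and with library size alone (beside 6.05%). Without overlap between the genotypes, LSD1-mKO was higher for 1 of the 10 genes, Hsp90aa1, beside 6.63% of all genes tested, and lower for 0 of the 10, beside 6.10%. Without WT replicate 2 the genes without overlap were 0 of 10, beside 10.6% of all genes higher in LSD1-mKO and 10.6% lower. Without WT replicate 1 they were 2, both higher, beside 15.9% higher and 17.9% lower, and without LSD1-mKO replicate 3 also 2, both higher, beside 8.93% and 9.03%. Without LSD1-mKO replicate 1 they were 5, of which 3 were higher and 2 lower, beside 12.7% and 11.8%. The fitted level was higher in LSD1-mKO for 6 of the 10 and lower for 4, with a median log2 fold change of 0.077 against -0.020 over all genes tested, and 45.2% of those genes had a higher fitted level. The median of the 10 was 0.17, 0.023 and 0.035 without WT replicate 1, 2 and 3. These signs were the same under every normalization tried, and those of Hspa1a, Hspa1b, Hsph1 and Hspb1 reversed in some fits without 1 mouse. A p over the threshold does not show equal levels: the 95% confidence intervals of the 10 genes together reached from a log2 fold change of -0.65 to 0.59, both for Hspa1a.

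**Figure D1:**
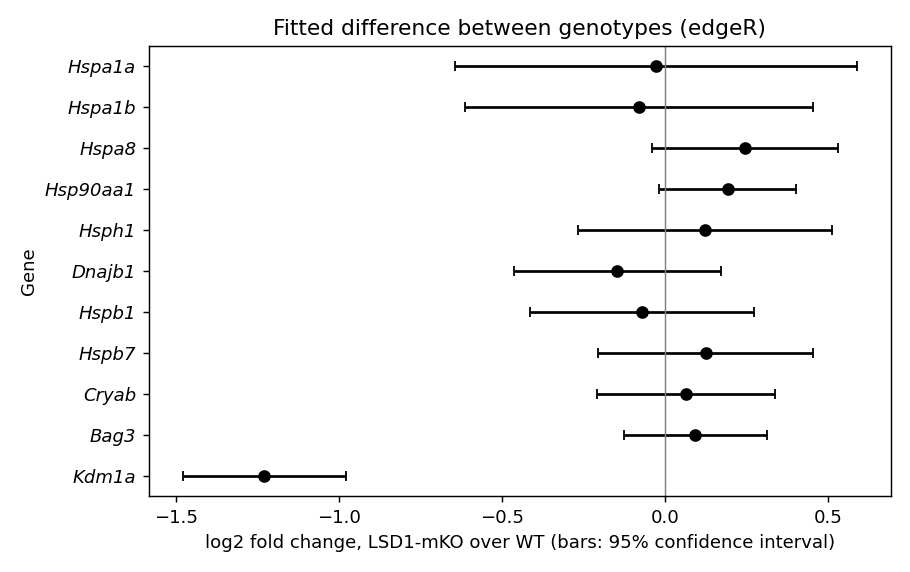
Fitted log2 fold change of LSD1-mKO over WT for the 10 genes and Kdm1a on the x axis, with points for the edgeR estimate and bars for its 95% confidence interval, n = 3 mice per genotype. The interval of each of the 10 genes includes 0, and that of Kdm1a lies between -1.48 and -0.98.

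Per transcript length the 10 genes spanned a wide range. In TPM, for which each count is divided by the length of the longest coding transcript and scaled to a common total, Cryab was the highest with a mean level of 3885 ± 346 (SD, n = 6 mice), the 28th gene of the table in order of mean TPM. Hspb7 followed at 2344 ± 196 TPM, Hspa8 at 1515 ± 180 TPM and Hspb1 at 1054 ± 115 TPM. These levels placed small heat shock proteins and the constitutive HSP70 far above Hspa1a and Hspa1b. Bag3 stood at 311 ± 24.9 TPM and Hsp90aa1 at 66.6 ± 6.42 TPM. Hsph1 had a mean of 42.7 ± 7.35 TPM and Hspa1a of 39.5 ± 10.3 TPM, while Hspa1b had 20.8 ± 4.73 TPM and Dnajb1 9.19 ± 0.765 TPM. Of the neighbours in this order, Hsph1 and Hspa1a did not differ beyond their spread, since the 6 mice covered 35.2 to 55.6 TPM for Hsph1 and 30.4 to 55.0 TPM for Hspa1a, and the ranges of the other neighbours did not overlap. Cryab, Hspb7 and Hspa8, the most abundant of the 10, made up 81.2% to 84.5% of their summed TPM in each mouse.

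**Figure D2:**
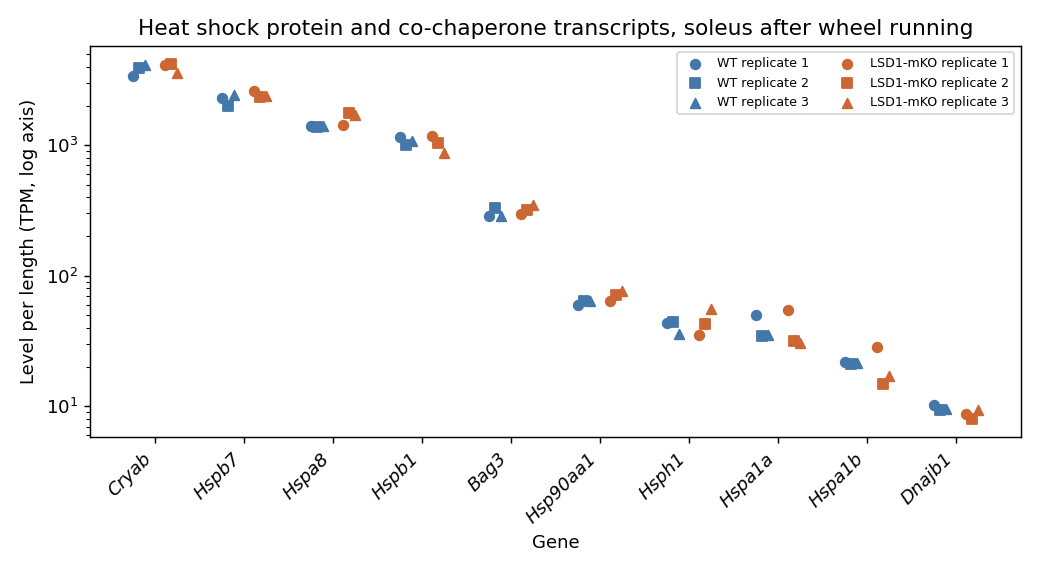
Level per length (TPM, log axis) of the 10 genes in order of their mean, with 1 point per mouse, WT in blue and LSD1-mKO in orange, and the replicate shown by the marker. Means fall from 3885 TPM for Cryab to 9.19 TPM for Dnajb1. The log axis compresses the spread within a gene, which for Hspa1a in LSD1-mKO reached from 30.4 to 55.0 TPM.

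Hspa1a and Hspa1b encode the stress-inducible HSP70 and are neighbours on chromosome 17 of GRCm38, on the minus strand at 34969190 to 34972156 and 34956436 to 34959238. Hspa1a stood at 72.3, 43.2 and 46.3 CPM in WT and at 74.4, 42.6 and 40.7 CPM in LSD1-mKO. Replicate 1 of each genotype was high and the other 4 mice were close together. LSD1-mKO replicate 1 was above all 3 WT mice, and the other LSD1-mKO mice were below all 3. Hspa1b stood at 29.9, 24.8 and 26.7 CPM in WT and at 36.5, 18.6 and 21.6 CPM in LSD1-mKO. LSD1-mKO replicate 1 was again the highest, and the other LSD1-mKO mice were below all 3 WT mice. The log2 fold change was -0.030 for Hspa1a (SE 0.27, 95% confidence interval -0.65 to 0.59, adjusted p = 0.985, edgeR with Benjamini-Hochberg adjustment) and -0.081 for Hspa1b (SE 0.23, interval -0.61 to 0.45, adjusted p = 0.956). The exact permutation test, two-sided and limited to 0.1 at this size, gave p = 0.700 for Hspa1a and p = 0.900 for Hspa1b.

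The coding sequences of Hspa1a and Hspa1b were 99.43% identical over 1926 aligned columns, and 52.68% of the 75-base stretches of the Hspa1a transcript, the length of the reads, also occurred in that of Hspa1b. Of the stretches of Hspa1a, 14.59% occurred in Gm20481, which the count table does not list, and 5.88% in Hspa1l, which stood at 74.1 to 107 CPM. The division of reads among these genes is therefore uncertain, for the sum of the pair as well. Summed into 1 gene, the pair stood at 102, 68.1 and 72.9 CPM in WT and at 111, 61.3 and 62.3 CPM in LSD1-mKO. The high value of replicate 1 in each genotype was present in the sum. LSD1-mKO replicate 1 was above every WT mouse, and the other LSD1-mKO mice were below every WT mouse. The log2 fold change of the sum was -0.048 (SE 0.25, interval -0.62 to 0.52, adjusted p = 0.976, edgeR).

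Hspa8 encodes the constitutive HSP70 of the cytosol. Its level was 1630, 1391 and 1483 CPM in WT and 1562, 1925 and 1848 CPM in LSD1-mKO. LSD1-mKO replicates 2 and 3 were above every WT mouse and replicate 1 was within the WT range, so the groups overlapped in 1 mouse. The log2 fold change was 0.24 (SE 0.12, interval -0.041 to 0.53, adjusted p = 0.766, edgeR) and the exact permutation p was 0.200. Scaled by length and total as TPM, with no TMM factor, the values were 1392, 1382 and 1396 in WT and 1431, 1779 and 1710 in LSD1-mKO. On that scale the groups did not overlap, and the margin between LSD1-mKO replicate 1 and the highest WT mouse was small. Of its 75-base stretches, 68.58% also occurred in 11 other genes, most of them processed pseudogenes, and none of the 11 is listed in the count table.

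Hsp90aa1 encodes the stress-responsive HSP90 of the cytosol. It stood at 95.2, 87.7 and 93.6 CPM in WT and at 95.7, 106 and 114 CPM in LSD1-mKO. The lowest LSD1-mKO mouse exceeded the highest WT mouse, by a margin of less than 1 CPM between LSD1-mKO replicate 1 and WT replicate 1. The log2 fold change was 0.19 (SE 0.092, interval -0.019 to 0.40, adjusted p = 0.766, edgeR), and the exact permutation p was 0.1, the smallest that 3 against 3 mice allow. With scaling by library size alone, Hsp90aa1 overlapped between the genotypes, and the genes without overlap were 2 of the 10, Hspa8, higher in LSD1-mKO, and Dnajb1, lower, beside 5.37% and 6.43% of all genes tested on that scale. Pseudogenes shared 53.10% of the 75-base stretches of its transcript.

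The proteins of Dnajb1, Hsph1 and Bag3 act with HSP70. Dnajb1, a J-domain protein that stimulates the HSP70 ATPase, stood at 14.9, 11.8 and 12.6 CPM in WT and at 11.9, 10.8 and 12.8 CPM in LSD1-mKO. WT replicate 1 was the highest mouse and LSD1-mKO replicate 2 the lowest, with overlap between the groups. Hsph1, an HSP110 nucleotide exchange factor, stood at 80.2, 70.2 and 60.5 CPM in WT and at 61.0, 73.0 and 95.4 CPM in LSD1-mKO. LSD1-mKO replicate 1 was next to the lowest WT mouse and replicate 3 was the highest of the 6, so the groups overlapped. Bag3 stood at 362, 357 and 326 CPM in WT and at 346, 367 and 402 CPM in LSD1-mKO. LSD1-mKO replicates 2 and 3 were the highest mice for Bag3 and replicate 1 was inside the WT range. The log2 fold changes were -0.15 for Dnajb1 (SE 0.14), 0.12 for Hsph1 (SE 0.17) and 0.092 for Bag3 (SE 0.095), with adjusted p of 0.868, 0.909 and 0.879 in edgeR. No 75-base stretch of these 3 transcripts occurred in another gene.

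The small heat shock proteins form oligomers that hold unfolding proteins in a soluble state. Hspb1, which encodes HSP25 in the mouse, stood at 530, 389 and 446 CPM in WT and at 499, 435 and 365 CPM in LSD1-mKO. WT replicate 1 was the highest and LSD1-mKO replicate 3 the lowest, with the remaining mice of both genotypes interleaved. Hspb7, expressed mainly in heart and skeletal muscle, stood at 3131, 2336 and 2976 CPM in WT and at 3288, 2910 and 2997 CPM in LSD1-mKO. WT replicate 2 was below the other 5 mice, which lay close together. Cryab, which encodes αB-crystallin and binds desmin, stood at 1842, 1848 and 2057 CPM in WT and at 2085, 2127 and 1791 CPM in LSD1-mKO. LSD1-mKO replicate 3 was the lowest of the 6 mice and the other LSD1-mKO mice were the highest. The log2 fold changes were -0.072 for Hspb1 (SE 0.15), 0.12 for Hspb7 (SE 0.14) and 0.063 for Cryab (SE 0.12), with adjusted p of 0.942, 0.891 and 0.934 in edgeR. Without WT replicate 2 that of Hspb7 was 0.0066. Of the 75-base stretches of Hspb1, 47.31% also occurred in 2 genes that the count table does not list. Cryab shares exon sequence with Hspb2 on the opposite strand, and the sources used here do not say whether counting used the strand, so reads from the overlap cannot be assigned.

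**Figure D3:**
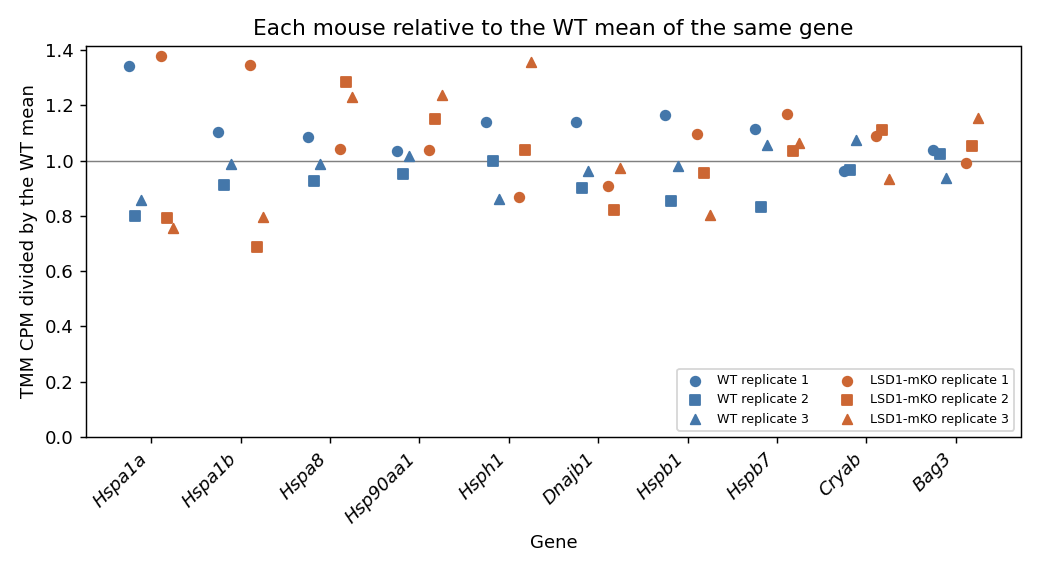
TMM CPM of each mouse divided by the WT mean of the same gene, for the 10 genes, with WT in blue, LSD1-mKO in orange and the replicate shown by the marker (n = 3 mice per genotype, line at the WT mean). Replicate 1 of both genotypes is high for Hspa1a, at 72.3 and 74.4 CPM against a WT mean of 53.9 CPM, and Hsp90aa1 is the gene whose genotypes do not overlap on this scale.

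The spread between mice of a genotype was uneven over the 10 genes. The coefficient of variation, averaged over the genotypes, was 32.8% for Hspa1a and 23.5% for Hspa1b, followed by 18.4% for Hsph1 and 15.5% for Hspb1. It was 6.53% for Hsp90aa1, 6.64% for Bag3 and 7.77% for Cryab. The value of Cryab was 3.90% without LSD1-mKO replicate 3 and 4.70% without WT replicate 3, and that of Bag3 was 4.34% without WT replicate 3. The median over the 10 genes was 10.6%, beside 11.5% over all genes tested and 8.98% over those with a mean of at least 10 CPM, a level that all 10 exceed. The value of Hspa1b came mainly from LSD1-mKO (37.4%, against 9.55% in WT), and was 10.1% without LSD1-mKO replicate 1. That of Hspa1a was 20.4% without WT replicate 1 and 16.5% without LSD1-mKO replicate 1.

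Over the 6 mice the 10 genes did not vary as 1 group. Of their 45 pairs, 25 had a Pearson correlation of log2 CPM above 0, and 4 pairs had one above 0.8, given here as a description of 6 libraries that share their scaling. Hsph1 and Bag3 had r = 0.940 and rho = 0.943, with r = 0.858 in the 4 libraries left without the 2 farthest from the median of Hsph1. Hspa8 and Hsp90aa1 had r = 0.924 and rho = 0.886, and r = 0.904 when reduced to 4 libraries in the same way by Hspa8. The 4 genes of these pairs were above their own mean in LSD1-mKO replicate 3 and below it in WT replicate 3. Hspa8, Hsph1 and Bag3 were highest in the 3 mice whose fibroblast and immune markers, given below, were lowest. None of the other genes of the 10 was highest in those 3 mice. Cryab was lowest in LSD1-mKO replicate 3, which is among them, at 1791 CPM. Hspa1a had r = 0.893 and rho = 0.886 with Hspb1, with r = 0.793 in 4 libraries, and r = 0.863 and rho = 0.943 with Hspa1b, with r = 0.664 in 4 libraries. Replicate 1 of both genotypes was high for Hspa1a, Hspa1b and Hspb1, and the reads shared by Hspa1a and Hspa1b enter the correlation of that pair. The lowest r was -0.740, between Hsph1 and Cryab (rho = -0.600), and the lowest rho was -0.771, between Dnajb1 and Cryab (r = -0.593).

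The 5 genes outside the chaperone lists that varied most like the mean z-score of 6 of the 10 genes (Hspa1a, Hspa1b, Hspa8, Hsp90aa1, Hsph1 and Dnajb1) were Natd1, Cycs, Acot2, Ppp3cc and Asun, with Pearson r from 0.993 to 0.996 over the 6 libraries, the highest values among the 12684 genes outside the lists that were compared. The 6 genes themselves had r from 0.221 (Hspa1b) to 0.655 (Dnajb1) with this mean, so it does not describe a pattern that they share. The mean z-score was 0.636, -0.651 and -0.397 in WT and 0.133, -0.192 and 0.471 in LSD1-mKO. It was highest in WT replicate 1 and lowest in WT replicate 2, with the LSD1-mKO mice between them. Cycs, which encodes cytochrome c, stood at 948, 762 and 803 CPM in WT and at 879, 840 and 917 CPM in LSD1-mKO, in the same order of mice as the score.

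Beyond the 10 genes, 105 further genes of the chaperone system were listed and 100 were tested, of which 0 passed the adjusted threshold in edgeR, in DESeq2 and in limma voom. At an unadjusted p under 0.05 in edgeR, 4 of the 100 were higher in LSD1-mKO and 0 were lower, beside 3.52% and 2.88% of all genes tested. DESeq2 gave 3 of 100, beside 4.50% of all genes, and limma voom 4, beside 6.31%. The median log2 fold change of the 100 was 0.045 against -0.020 over all genes tested. The 4 genes from edgeR were Hspa4l, an HSP110 relative of Hsph1, the distant HSP70 relative Hspa12a, and the J-domain genes Dnajc12 and Dnajc27. Hspa4l stood at 19.2, 19.2 and 19.0 CPM in WT and at 25.8, 25.0 and 28.9 CPM in LSD1-mKO. The genotypes did not overlap for Hspa4l, with LSD1-mKO higher, and its log2 fold change was 0.47 (SE 0.095, interval 0.26 to 0.69, adjusted p = 0.340, edgeR). The log2 fold changes of Hspa12a, Dnajc12 and Dnajc27 were 0.31, 0.33 and 0.35, with adjusted p of 0.766, 0.701 and 0.708 in edgeR. These genes did not overlap between the genotypes either. Without overlap, 11 of the 100 were higher in LSD1-mKO and 4 lower, beside 6.63% and 6.10% of all genes tested.

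Tested genes were counted by list, with Hspb8 and Stub1 each in 2 lists. Those with a higher and a lower fitted level were 2 (Hsf4, Hsbp1) and 2 (Hsf1, Hsf2) of the heat shock factors with Hsbp1. They were 8 and 3 of the other HSP70 and HSP110 genes, and 22 and 14 of the other J-domain genes. They were 2 and 1 of the other HSP90 genes, 8 and 9 of the HSP90 co-chaperones and 6 and 5 of the HSP70 co-chaperones. They were 4 and 1 of the other small heat shock proteins, 7 and 3 of the chaperonins, and 2 and 3 of the partners of BAG3. The gene with the largest fitted difference was Hsf2 of the heat shock factors (log2 fold change -0.13), Hsp90ab1 of the other HSP90 genes (0.13), Fkbp5 of the HSP90 co-chaperones (-0.47) and Grpel2 of the HSP70 co-chaperones (0.25). It was Hspb3 of the other small heat shock proteins (0.25), Hspd1 of the chaperonins (0.20) and Hspb8 of the BAG3 partners (0.16), and the adjusted p of these 7 genes lay between 0.766 and 0.890 in edgeR. Hspb8, the small heat shock protein that BAG3 binds, stood at 311, 293 and 300 CPM in WT and at 334, 347 and 330 CPM in LSD1-mKO. It was among the 11 of the 100 that were higher without overlap. Fkbp5, an HSP90 co-chaperone induced by glucocorticoids, ranged from 52.7 to 241 CPM within WT and from 72.1 to 182 CPM within LSD1-mKO, and its log2 fold change was -0.036 without WT replicate 1 and -0.97 without LSD1-mKO replicate 3.

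Markers of other cell types differed between libraries, and their part in the levels of the 10 genes was not tested. The 5 fibroblast markers, 5 of 5 tested, summed to 1286, 3320 and 4234 CPM in WT and to 2713, 1287 and 1423 CPM in LSD1-mKO, with Dcn as the most abundant, at 396 to 812 CPM. Of the immune markers, 4 of 5 were tested and summed to 21.3, 92.5 and 74.0 CPM in WT and to 60.6, 26.8 and 35.9 CPM in LSD1-mKO, with Csf1r as the most abundant. WT replicate 1 and LSD1-mKO replicates 2 and 3 were low on both lists. The same 3 mice were the 3 highest for Hspa8, Hsph1 and Bag3, and for none of the other genes of the 10. Hspa1a was highest in replicate 1 of each genotype, and Cryab was lowest in LSD1-mKO replicate 3. By the same mean, the most abundant genes of the other lists were Smtn for smooth muscle, Cdh5 for endothelium, Fabp4 for adipocytes, Hba-a2 for red blood cells, Pmp22 for Schwann cells and Myh2 for fast fibers. The summed levels in WT and LSD1-mKO were 343 to 412 and 331 to 391 CPM for smooth muscle, 404 to 599 and 435 to 526 CPM for endothelium, and 515 to 591 and 494 to 588 CPM for adipocytes. They were 201 to 535 and 260 to 420 CPM for red blood cells, and 152 to 167 and 145 to 173 CPM for Schwann cells. Slow-fiber markers summed to 32173 to 40012 CPM in WT and 34642 to 41943 CPM in LSD1-mKO, and fast-fiber markers to 51058 to 74536 and 51444 to 63508 CPM. At an unadjusted p under 0.05, there were 2 of 51 marker genes in edgeR, beside 6.40% of all genes tested. These were Actn3 of the fast-fiber list (63.6 to 198 CPM in WT and 165 to 497 CPM in LSD1-mKO, adjusted p = 0.636, edgeR) and Hba-a1 of the red blood cell list (0 to 13.5 CPM in WT and 2.59 to 202 CPM in LSD1-mKO, adjusted p = 0.684, edgeR). Hba-a1 was higher in LSD1-mKO, while the other 4 genes of its list had a lower fitted level, among them Hba-a2 (log2 fold change -0.58). No marker was at 0 in every library.

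The bases before the starts of 7 of the 10 genes were searched in the RefSeq promoter table of GRCm38.p6, namely Hspa1a, Hspa1b, Hsph1, Dnajb1, Hspb1, Hspb7 and Bag3, and those of Hspa8, Hsp90aa1 and Cryab were not analysed here. Heat shock factors bind inverted repeats of GAA, and the search used GAANNTTC and TTCNNGAA, each of which reads the same on both strands. Of the 250 bases before a start, either form was found at 4 of the 7 genes, Hspa1a, Hspa1b, Hsph1 and Hspb1, and at 14.5% of all 27025 genes in the table. A run of 3 alternating units with the same spacing was found at 0 of the 7 genes and at 0.514% of all genes. Hspa1a, Hspa1b and Hspb1 were high in the same mice, while Hsph1 had r = -0.294, -0.492 and -0.431 with them. Any link of the matches to these levels was not tested. The windows of these 4 genes are printed because they hold the matches, shown in capitals, from 5′ to 3′ in the direction of the gene. They lie on the minus strand at chr17:34972157-34972406 (Hspa1a), chr17:34959239-34959488 (Hspa1b) and chr5:149636337-149636586 (Hsph1, the first of its 2 listed starts), and on the plus strand at chr5:135887669-135887918 (Hspb1).
Hspa1a: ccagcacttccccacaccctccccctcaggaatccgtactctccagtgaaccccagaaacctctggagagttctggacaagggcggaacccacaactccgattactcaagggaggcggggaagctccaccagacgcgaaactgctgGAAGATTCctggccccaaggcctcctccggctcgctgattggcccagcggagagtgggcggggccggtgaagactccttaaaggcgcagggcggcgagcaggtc
Hspa1b: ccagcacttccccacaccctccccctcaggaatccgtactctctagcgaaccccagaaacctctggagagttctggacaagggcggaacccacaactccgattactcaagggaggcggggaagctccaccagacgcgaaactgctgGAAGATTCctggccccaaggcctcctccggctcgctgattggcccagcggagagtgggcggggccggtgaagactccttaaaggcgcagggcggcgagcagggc
Hsph1: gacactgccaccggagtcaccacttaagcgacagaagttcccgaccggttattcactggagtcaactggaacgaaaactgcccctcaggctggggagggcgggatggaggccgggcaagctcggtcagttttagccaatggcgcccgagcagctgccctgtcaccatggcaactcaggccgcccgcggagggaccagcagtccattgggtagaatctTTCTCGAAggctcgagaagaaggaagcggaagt
Hspb1: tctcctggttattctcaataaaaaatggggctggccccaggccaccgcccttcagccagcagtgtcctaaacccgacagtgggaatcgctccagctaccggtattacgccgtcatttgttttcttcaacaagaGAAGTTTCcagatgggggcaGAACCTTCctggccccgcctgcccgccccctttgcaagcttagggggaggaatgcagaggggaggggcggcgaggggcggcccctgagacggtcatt

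The match began 104 bases before the start in both Hspa1a and Hspa1b and 33 bases before it in Hsph1, and the matches of Hspb1 began 117 and 97 bases before its start. The windows of Hspa1a and Hspa1b differed at 3 of 250 positions, C44T, T47C and T249G, counted from 1 at the 5′ end with the base of Hspa1a first. None of the 3 differences lies in the match. A match describes the letters of the window and not the binding of a factor.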

How the data were processed

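Poly(A) RNA of Sol from 3 mice per genotype (WT, LSD1-mKO) gave 75-base single-end reads. Per the submitters' processing notes the reads were aligned to mm10 with STAR, and the authors deposited estimated counts per gene, not normalized. The counter, the gene annotation and the use of strand are not given in the sources used here. A deposited DESeq2 table holds the authors' own comparison and was not used. Columns were matched to samples by the number in their headings.

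The rounded estimated counts were fitted in R 4.3.3 by the quasi-likelihood method of edgeR 4.0.16, after filterByExpr and TMM. P-values were adjusted by Benjamini-Hochberg across the 12828 genes tested and called under 0.05. Alternatives were DESeq2 1.42.0, voom from limma 3.58.1, other normalizations and filters, the replicate number as a block, and each mouse left out in turn. An exact two-sided permutation test was applied to the CPM of each named member gene. The count step was tested on simulated data. TPM used the longest coding transcript of GENCODE vM21, and shared sequence was counted as identical 75-base stretches among transcripts of that annotation. Depth ran from 8940206 to 13798059 estimated counts. The lowest chi-square per gene between pairs of libraries was 9.89, so no library was a repeat of another.

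The 10 genes and the lists were chosen with earlier results of these data known. Of the chaperone lists, genes with an unadjusted p under 0.05 are named, otherwise the gene with the largest absolute log2 fold change at a mean of at least 5 CPM. Of the marker, cold-inducible, clock and immediate early lists, the most abundant gene and those with an unadjusted p under 0.05 are named. The 5 genes most correlated with the mean z-score of 6 of the 10 are also named. Esr1, Myh4, Hspa1l, Gm20481 and the genes behind changes with a setting fall outside this rule and were named after their values were seen.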

Additional observations from a re-analysis of the deposited data

How the results depend on the processing

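Under the alternatives, 0 of the 10 chaperone genes passed the adjusted threshold in every case. Of 141 log2 fold changes recomputed for them, 133 kept their sign and 8 reversed, each with 1 mouse left out. With each mouse left out in turn, log2 fold changes lay within -0.37 to 0.24 for Hspa1a, -0.43 to 0.11 for Hspa1b, -0.066 to 0.26 for Hsph1 and -0.18 to 0.054 for Hspb1. They lay within 0.19 to 0.33 for Hspa8, 0.13 to 0.26 for Hsp90aa1, -0.22 to -0.047 for Dnajb1, 0.0066 to 0.21 for Hspb7, 0.024 to 0.14 for Cryab and 0.032 to 0.14 for Bag3. Of the genes named from the other lists they lay within -0.97 to -0.036 for Fkbp5, 0.034 to 0.26 for Hsp90ab1, 0.10 to 0.30 for Hspd1, 0.11 to 0.37 for Hspb3 and -0.16 to -0.079 for Hsf2. The genes without overlap were 1 of 10, 2 with library size alone and 0 to 5 with 1 mouse left out: 0 without WT replicate 2 (beside 10.6% of all genes higher in LSD1-mKO and 10.6% lower), 2 higher in LSD1-mKO without WT replicate 1 (beside 15.9% of all genes tested in that fit) or without LSD1-mKO replicate 3 (beside 8.93%), and 5 without LSD1-mKO replicate 1. Of these 5, Hspa8, Hsp90aa1 and Bag3 were higher in LSD1-mKO, beside 12.7% of all genes, and Hspa1a and Hspa1b lower, beside 11.8%. With fewer mice, groups separate more readily. The genes past the threshold numbered 2 in edgeR, 42 in DESeq2 (33 higher and 9 lower), 11 with no filter on low counts, and 1 to 3 with a mouse left out. The cause of these differences was not tested. With the replicate block the count was 1, and Kdm1a lost its call. Kdm1a also lost its call without WT replicate 2 and without LSD1-mKO replicate 1, 2 or 3, with a log2 fold change of -1.17 to -1.26. Deviations of same-numbered mice from their group means correlated at -0.373, -0.089 and -0.145, and no mouse correlated best with its own number, so mice were not treated as pairs. Counting error weighs most on Dnajb1, the lowest of the 10, at 10.8 to 14.9 CPM.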

Other observations

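Genes outside the chaperone system that respond to cold, time of day or activity were also examined. Both cold-inducible genes were tested and 0 of 2 passed the adjusted threshold or an unadjusted p under 0.05 in edgeR, DESeq2 or limma voom. Rbm3, a cold-inducible RNA-binding protein, stood at 169, 155 and 209 CPM in WT and at 214, 152 and 137 CPM in LSD1-mKO, with overlap between the groups.

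Of 13 clock genes tested, 0 passed the adjusted threshold in edgeR and in limma voom, beside 0.0156% and 0.0234% of all genes tested. In DESeq2 1 did, Arntl, beside 0.327%. At an unadjusted p under 0.05 in edgeR there were 1 higher and 2 lower in LSD1-mKO, beside 3.52% and 2.88% of all genes tested. The count was 3 of 13 in DESeq2, beside 4.50%, and 3 of 13 in limma voom, beside 6.31%. Arntl, an activator of the clock, stood at 2.77, 4.41 and 3.38 CPM in WT and at 9.17, 7.17 and 8.38 CPM in LSD1-mKO. The genotypes did not overlap for Arntl, with LSD1-mKO higher and a log2 fold change of 1.21 (SE 0.21, adjusted p = 0.269, edgeR with Benjamini-Hochberg adjustment). Per1 and Per3, the 2 lower genes by unadjusted p, had log2 fold changes of -0.36 and -0.37, with adjusted p of 0.665 and 0.766 in edgeR. Per3 overlapped between the groups. Tef was the most abundant clock gene, at 326 to 403 CPM.

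Of 9 immediate early genes tested, 9 had a lower and 0 a higher fitted level in LSD1-mKO, beside 45.2% of all genes tested with a higher one. All LSD1-mKO mice were below all WT mice for 0 of the 9, beside 6.10% of all genes tested. In edgeR, DESeq2 and limma voom, 0 of the 9 passed the adjusted threshold. At an unadjusted p under 0.05 there were 2 in edgeR, 2 in DESeq2 and 1 in limma voom, beside 6.40%, 4.50% and 6.31% of all genes tested. Fos stood at 28.8, 6.03 and 24.6 CPM in WT and at 6.07, 2.68 and 6.61 CPM in LSD1-mKO. WT replicates 1 and 3 were high and WT replicate 2 was within the LSD1-mKO range. Jun, the most abundant of the list, had a log2 fold change of -0.42 (SE 0.18, adjusted p = 0.766, edgeR). The hours at which the tissues were taken are not given in the sources used here.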
